A study of Mus musculus with 10 samples.

Results

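RelA was mapped by ChIP-seq (chromatin immunoprecipitation and sequencing of the recovered DNA) in primary mouse macrophages after 3 h of lipopolysaccharide (LPS) and in the same kind of cells without LPS (0 h). RelA regions of both lists that overlapped a region of the input DNA by at least 1 bp were left out, and the remaining regions fell into 3 classes by whether the other list held a region sharing at least 1 bp. Of 4972 regions at 3 h, 37 (0.744%) were also called at 0 h and 4935 were called at 3 h alone. Of 47 regions at 0 h, 37 (78.7%) were also called at 3 h and 10 were called at 0 h alone. These 4982 distinct places come from lists of 5017 regions at 3 h and 83 at 0 h, in a series of 115077 regions over 10 libraries.

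Both RelA libraries came from macrophages grown from bone marrow of C57BL/6J mice, cross-linked with 1% formaldehyde for 10 min and precipitated with 1 RelA antibody (Ab7970); neither received the glucocorticoid dexamethasone (Dex). The LPS-treated cells had 3 h of LPS, the resting cells had 0 h, and the input DNA was from untreated cells. The labels do not say how many mice or cultures stand behind a library. The name under which the 0 h list was deposited also carries a time of 3 h that the labels do not explain, and the 0 h assignment used here is that of the sample's title. Each condition had 1 library, so no spread between replicates exists, no test between conditions was made, and the intervals given with shares are Wilson 95% intervals that cover counting error only. Where a count was 0, the upper limit given is instead 3 divided by the number of regions. That is a rough 95% bound, and roughest for small numbers. No source used here gives the sequencing depth.

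RelA, also called p65, is the subunit of the transcription factor NF-κB that carries its main activation domain. In a resting macrophage most RelA is held in the cytoplasm by inhibitor proteins of the IκB family. LPS, a component of the outer membrane of Gram-negative bacteria, signals through Toll-like receptor 4 to a kinase complex that marks IκB for destruction, and RelA dimers then enter the nucleus and bind κB sites near genes for cytokines, chemokines and survival proteins. Among the induced genes are the inhibitors themselves, which limit the response.

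Promoters of 4 genes whose starts lay in RelA regions at 3 h are shown because they stand for the classes described here: Tnfaip3 and Nlrp3 had a region in both lists, and Nfkbia and Ccl3 had one at 3 h alone. The sequences are the 250 bases before each gene's start, 5′ to 3′ on the gene's strand, from RefSeq on GRCm38.p6, a later build than the mm9 of the region lists. Capitals mark matches to the κB pattern GGGNNNNNCC or its reverse complement GGNNNNNCCC, searched on both strands, with overlapping matches joined.
Tnfaip3 (chr10:19015411-19015660, minus strand): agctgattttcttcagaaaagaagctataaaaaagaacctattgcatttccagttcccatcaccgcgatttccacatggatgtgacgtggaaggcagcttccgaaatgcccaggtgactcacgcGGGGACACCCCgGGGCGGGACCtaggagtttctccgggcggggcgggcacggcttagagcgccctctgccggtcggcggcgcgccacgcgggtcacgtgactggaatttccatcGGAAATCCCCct
Nlrp3 (chr11:59541319-59541568, plus strand): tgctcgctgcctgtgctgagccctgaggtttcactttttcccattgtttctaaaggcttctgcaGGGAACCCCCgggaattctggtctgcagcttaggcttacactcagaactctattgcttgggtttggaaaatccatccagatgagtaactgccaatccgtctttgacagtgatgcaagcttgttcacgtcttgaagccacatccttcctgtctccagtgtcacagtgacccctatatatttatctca
Nfkbia (chr12:55492648-55492897, minus strand): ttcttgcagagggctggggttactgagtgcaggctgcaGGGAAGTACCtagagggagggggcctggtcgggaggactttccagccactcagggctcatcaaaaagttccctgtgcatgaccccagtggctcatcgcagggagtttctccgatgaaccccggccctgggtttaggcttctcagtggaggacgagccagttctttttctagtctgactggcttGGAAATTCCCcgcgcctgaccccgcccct
Ccl3 (chr11:83649379-83649628, minus strand): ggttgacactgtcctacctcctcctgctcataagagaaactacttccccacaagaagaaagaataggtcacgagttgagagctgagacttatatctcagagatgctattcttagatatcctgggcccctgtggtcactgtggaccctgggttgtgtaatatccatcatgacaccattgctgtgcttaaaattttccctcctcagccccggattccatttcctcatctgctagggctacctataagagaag
The Tnfaip3 promoter held 4 matches, the last of them GGAAATCCCC starting 12 bases before the gene's start. The Nfkbia promoter held 2 matches, among them GGAAATTCCC 29 bases before the start, and the Nlrp3 promoter held 1 match, GGGAACCCCC, 186 bases before the start. No match lay in the Ccl3 window, which says only that these letters are not in it. The pattern is loose: 12258 of 27025 mouse promoter windows of this length (45.4%) held at least 1 match. Of the listed genes described further on that had an entry in the promoter table, 18 of 22 with a 3 h region at the start held a match (81.8%, interval 61.5 to 92.7%), and so did 9 of 12 without one (75%, 46.8 to 91.1%), so the intervals of these groups overlap.

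Regions called in both lists lay mostly at the strong end of the 3 h list. The authors give each region a highest tag density (MaxD) and a mean tag density (AveD), which are their own values per region in a unit that is not stated. Among the 37 regions in both lists, the highest tag density at 3 h had a median of 67.1 (quartiles 51.9 and 94.7), against 18.5 (14.6 and 25.3) among the 4935 regions at 3 h alone. The mean density had medians of 26.6 and 7.72, and the width had medians of 932 bp (quartiles 857 and 1054 bp) and 536 bp (385 and 682 bp), in the same order. The classes overlapped all the same: the range of the highest density was 6.42 to 171 in both lists and 0.815 to 137 at 3 h alone. The mean density was a smaller share of the highest in the regions of both lists (median ratio 0.371) than at 3 h alone (0.404).

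Among the 10 regions of highest density at 3 h, 6 were also called at 0 h. The share fell along the ranking, to 18 of the first 50 (36%, interval 24.1 to 49.9%), 20 of the first 100 and 34 of the first 500 (6.80%). The upper quintile of the 3 h list by density held 35 of the 37, or 3.52% of its 994 regions, and the 4 quintiles below held 1, 0, 0 and 1, given from the lowest to the 4th.

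**Figure D1:**
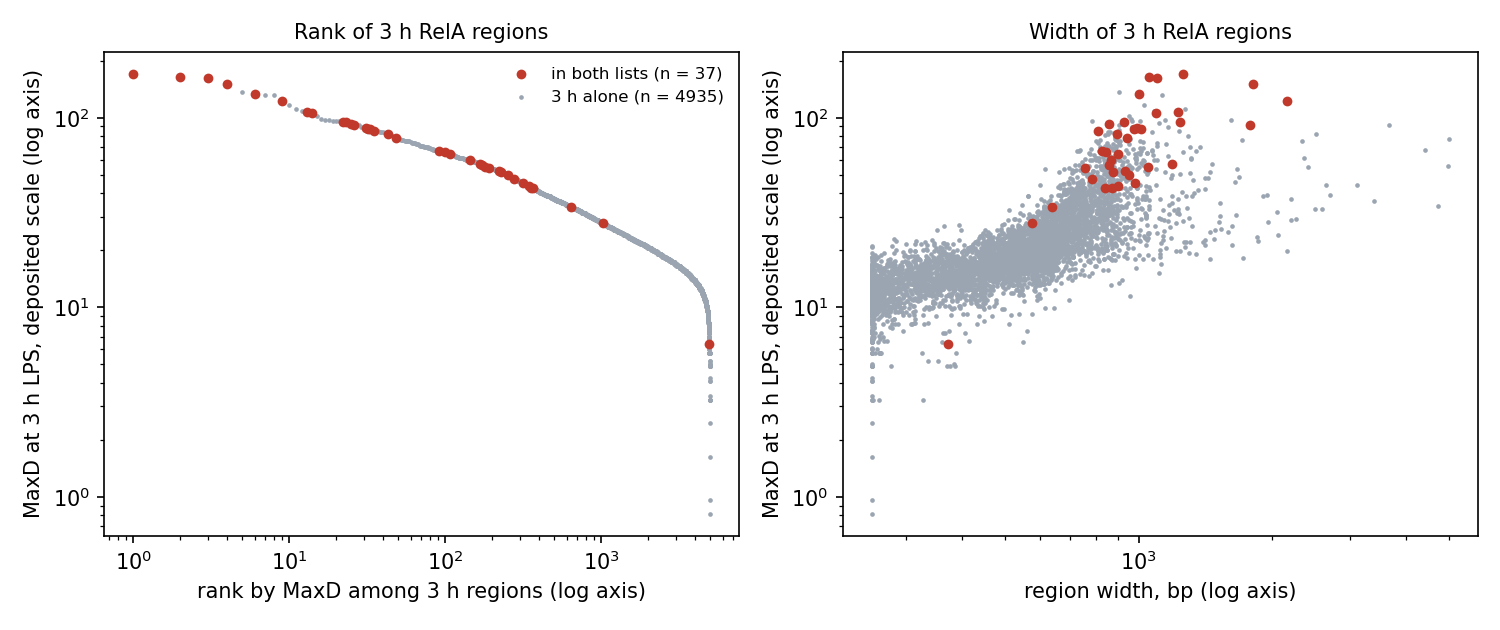
Each point is a RelA region of the 3 h list outside input, with its highest tag density (MaxD, log axis, the authors' scale) against its rank by that density (left, log axis) and its width in bp (right, log axis), coloured by class. The regions in both lists sit among the first ranks and at the dense and wide end (medians 67.1 and 932 bp), and 6 of the first 10 are theirs.

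At 3 h the regions outside input covered 2821375 bp, against 20839 bp at 0 h. The shortest region in each list was 251 bp, a width shared by 252 regions at 3 h and 6 at 0 h. At least 2000 bp were spanned by 22 regions at 3 h and by 0 of 47 at 0 h, where a count of 0 allows a share of up to 6.38%. The lowest score, the authors' z-score of a region, was 8.88 among 4972 regions at 3 h and 9.93 among 47 at 0 h. The lowest of the highest tag densities was 0.815 at 3 h and 2.94 at 0 h. The few weakest regions at 3 h ran from 0.815 to 3.26. A longer list can hold a lower minimum by its length alone, so these minima do not show which list reached weaker regions.

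The 37 shared regions can be followed from list to list. Their highest tag density had a median of 67.1 at 3 h and 21.8 at 0 h, their mean density 26.6 and 8.87, and their width 932 and 510 bp. Region by region, the highest density at 3 h was a median of 3.36 times that at 0 h (quartiles 2.59 and 4.35), it was above it in 36 of 37, and the ratio passed 4 in 12. The width ratio had a median of 1.96 and a lowest value of 1.31, so each of the 37 was wider at 3 h. In 36 of 37 the 0 h region lay wholly inside the 3 h region, and the centres were a median of 48 bp apart. Whether the densities of these libraries share a scale is not stated. The 16 pairs of regions in both lists that did overlap input, which are not part of the classes, had a median ratio of 0.968 (quartiles 0.723 and 1.14) between 3 h and 0 h. Their ratios ran from 0.197 to 1.60, and they are 16 of the 36 input-overlapping regions at 0 h. Whether the scales agree was not tested, and these pairs cannot settle it. Across the 37 regions the densities at 3 h and 0 h had a Spearman correlation of 0.415 and a Pearson correlation of 0.494, given as a description of 2 libraries, with no p, since all points share the same libraries and input filter.

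**Figure D2:**
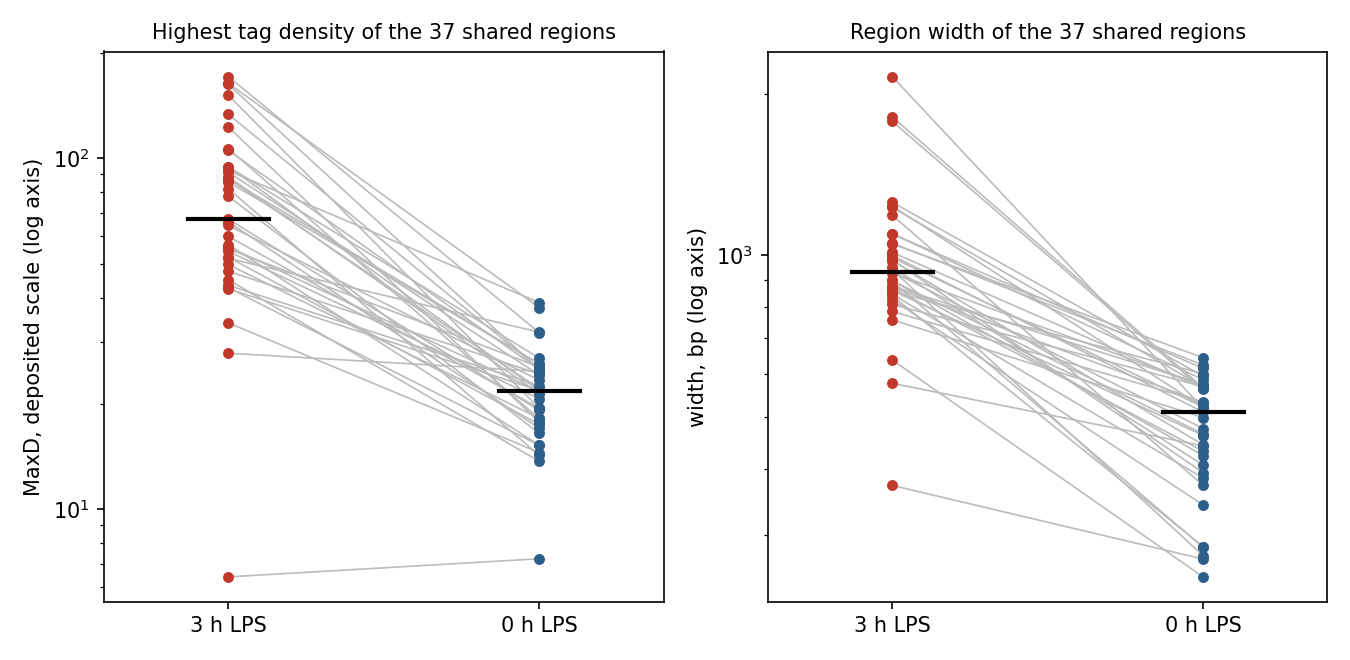
Highest tag density (MaxD, log axis, the authors' scale, left panel) and width in bp (log axis, right panel) of the 37 regions called in both lists, at 3 h and at 0 h of LPS, with a grey line joining each region and a black bar at each median. Density was higher at 3 h in 36 of 37 (medians 67.1 and 21.8), and width in each of the 37 (medians 932 and 510 bp).

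The densest region of the 3 h list was in this class and lay at the start of Tnfaip3, which encodes A20, a ubiquitin-editing enzyme that restrains NF-κB signalling. It spanned chromosome 10, 18734572 to 18735829 (mm9, as for every region named here), with a highest density of 171 at 3 h and 31.9 at 0 h. Next came a region inside Sod2, the gene of the mitochondrial superoxide dismutase, on chromosome 17, 13202574 to 13203628, with 164 at 3 h and 37.6 at 0 h. The next lay 86.6 kb past Cebpb, which encodes a transcription factor of myeloid cells, on chromosome 2, 167602606 to 167603704, with 162 at 3 h and 25 at 0 h. These 3 regions were among the densest in the 3 h list while the 0 h list gave them between 25 and 37.6.

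The largest ratio in the class, 7.80, was at chromosome 10, 77597384 to 77599198, with a density of 151 at 3 h and 19.4 at 0 h and a width of 1814 and 566 bp. Its neighbour in rank, on chromosome 17 from 18037460, had 134 at 3 h and 25.1 at 0 h. The region at the start of Nlrp3, the sensor protein of an inflammasome, spanned chromosome 11, 59354491 to 59356649, with 123 at 3 h and 17.7 at 0 h, and it was 2158 bp wide at 3 h and 518 bp at 0 h. The other 4 among the 10 densest of the class had 94.7 to 107 at 3 h and 18.1 to 27.0 at 0 h, and lay on chromosome 10 from 37057707 and from 74789177, chromosome 15 from 6518733 and chromosome 3 from 78976843.

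At 0 h the order differed. The densest shared region there was on chromosome 6, 48779399 to 48780256, with 92.3 at 3 h and 38.8 at 0 h. It was followed by the Sod2 region, a region on chromosome 4 from 102244454 (51.9 at 3 h and 32.0 at 0 h), the Tnfaip3 region and a region on chromosome 10 from 74789177 (94.7 at 3 h and 27.0 at 0 h). Of these 5 regions, Tnfaip3 and Sod2 were the only ones near a gene of the lists used here.

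Another pair of shared regions, chosen after their values were seen, lay near genes tied to the same pathway. A region inside Ikbke, which encodes a kinase of the IκB kinase family, on chromosome 1, 133173183 to 133174078, had 81.9 at 3 h and 14.2 at 0 h. A region 10.4 kb from Mir146, on chromosome 11, 43198381 to 43199432, had 55.2 at 3 h and 25.4 at 0 h. Mir146 encodes miR-146a, a microRNA known to target the signalling transcripts Irak1 and Traf6 downstream of Toll-like receptors. Its mature sequence is shown with that of miR-155, whose host gene had a region at 3 h alone, with the seed (bases 2 to 8) in capitals, from RefSeq on GRCm38.p6.
mmu-miR-146a-5p: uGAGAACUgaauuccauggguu
mmu-miR-155-5p: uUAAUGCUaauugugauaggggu
The seeds of this pair of microRNAs differ.

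The exception among the 37 was a weak region on chromosome 12, 5623200 to 5623572, with 6.42 at 3 h and 7.23 at 0 h. The next lowest density of the class at 3 h was 27.9. The weak region was also listed at 8 h of LPS (6.24), with Dex before 8 h of LPS (8.56), with late Dex (6.34) and for the glucocorticoid receptor (12.4 with LPS and Dex, 13.5 with Dex). Its density was between 6.24 and 8.56 in the 5 RelA lists that held it.

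The 37 regions lay on 16 chromosomes, with none on chromosomes 9, 14, 18, X or Y. Another 3 h region lay within 10 kb of 19 of the 37 (51.4%, interval 35.9 to 66.6%), against 1699 of the 4935 regions at 3 h alone (34.4%, 33.1 to 35.8%). The classes differ in highest density (medians 67.1 and 18.5), so these shares are not of like density. The most crowded region had 4 such neighbours in the class of both lists and 11 at 3 h alone. These are maxima over 37 and 4935 regions, and the larger class can reach higher by its size alone.

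The other lists of the series, which the classes did not use, held the classes at different shares. RelA after 8 h of LPS listed 31.3% of all 3 h regions; it listed 36 of the 37 in both lists (97.3%, interval 86.2 to 99.5%) and 1520 of the 4935 at 3 h alone (30.8%, 29.5 to 32.1%). With Dex added late in an 8 h LPS treatment, the list held 4.24% of all 3 h regions, 25 of the 37 (67.6%, 51.5 to 80.4%) and 186 at 3 h alone (3.77%). With Dex given 3 h before and no LPS, RelA was called at 0.603% of all 3 h regions, at 18 of the 37 (48.6%, 33.4 to 64.1%) and at 12 at 3 h alone (0.243%). That list came from cells without LPS, as did the 0 h list that set the class. Its share is therefore close to a repeat of that choice and is not separate support. With Dex given 3 h before 3 h of LPS, the figures were 0.241% of all 3 h regions, 7 of the 37 (18.9%, 9.48 to 34.2%) and 5 at 3 h alone (0.101%). With Dex before 8 h of LPS they were 0.0805%, 1 of the 37 (2.70%) and 3 at 3 h alone (0.0608%). That 1 region was the weak one on chromosome 12. In each of these RelA lists the share was higher in the class of both lists, in the last of them on that 1 region. The shares with Dex before LPS moved with the filters: when the overlap had to cover 50% or more of each region, 5 of 19 shared regions (26.3%) were called with Dex and no LPS and 1 of 19 (5.26%) with Dex before 3 h of LPS. With input-overlapping regions kept, 21 of 53 shared regions (39.6%) were called with Dex before 3 h of LPS and 14 of 53 (26.4%) with Dex before 8 h.

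The glucocorticoid receptor (GR), the hormone receptor through which Dex acts, was mapped with LPS and Dex and with Dex alone, after a different cross-linking. With LPS and Dex, GR met 62.0% of all 3 h RelA regions, 36 of the 37 (97.3%) and 3049 at 3 h alone (61.8%, interval 60.4 to 63.1%). With Dex alone it met 17.5% of all 3 h RelA regions, 17 of the 37 (45.9%, 31.0 to 61.6%) and 853 at 3 h alone (17.3%, 16.3 to 18.4%).

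Density differs between the classes, so the shares were also taken within the upper 20% and the upper 5% of the 3 h list by highest density, of which the second bound was chosen after the data had been seen. In the upper 20%, RelA was called with late Dex at 68.6% of 35 regions in both lists and 17.3% of 959 at 3 h alone, and with Dex before and no LPS at 51.4% and 1.25%. In the upper 5% the 28 regions in both lists had a median density of 87.5 and the 221 at 3 h alone one of 60.9, so the classes were closer but not equal. RelA at 8 h of LPS listed 100% (interval from 87.9%) and 93.2% (89.1 to 95.8%) of them, and GR with LPS and Dex met 100% and 91.0%. With late Dex the shares were 78.6% (60.5 to 89.8%) in both lists and 46.2% (39.7 to 52.7%) at 3 h alone. With Dex given before and no LPS they were 60.7% (42.4 to 76.4%) in both lists and 4.52% (2.48 to 8.13%) at 3 h alone. GR with Dex alone met 46.4% (29.5 to 64.2%) in both lists and 31.2% (25.5 to 37.6%) at 3 h alone, with intervals that overlap. With Dex before 3 h of LPS the shares were 25% (12.7 to 43.4%) in both lists and 1.81% (0.706 to 4.56%) at 3 h alone. In this upper 5% the intervals of the classes were apart for late Dex and for Dex before 0 or 3 h of LPS, and overlapped for 8 h of LPS and both GR lists. That overlap depended on the bound. In the upper 20% the intervals were apart for 8 h of LPS (85.5 to 99.5% against 71.8 to 77.3%). They were apart there too for GR with LPS and Dex (90.1 to 100% against 82.6 to 87.1%) and with Dex (30.5 to 61.8% against 22.1 to 27.5%). Median densities in that range were 78.0 in both lists and 36.8 at 3 h alone. The list with Dex before 8 h of LPS went the other way, with 0 of 28 in both lists, which allows a share of up to 10.7%, and 1 of 221 at 3 h alone (0.452%). In the upper 20% it likewise held 0 of 35 in both lists and 1 of 959 at 3 h alone. The only shared region in that list, the weak one on chromosome 12, lay below both bounds, so the density bounds alone fixed these counts of 0.

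**Figure D3:**
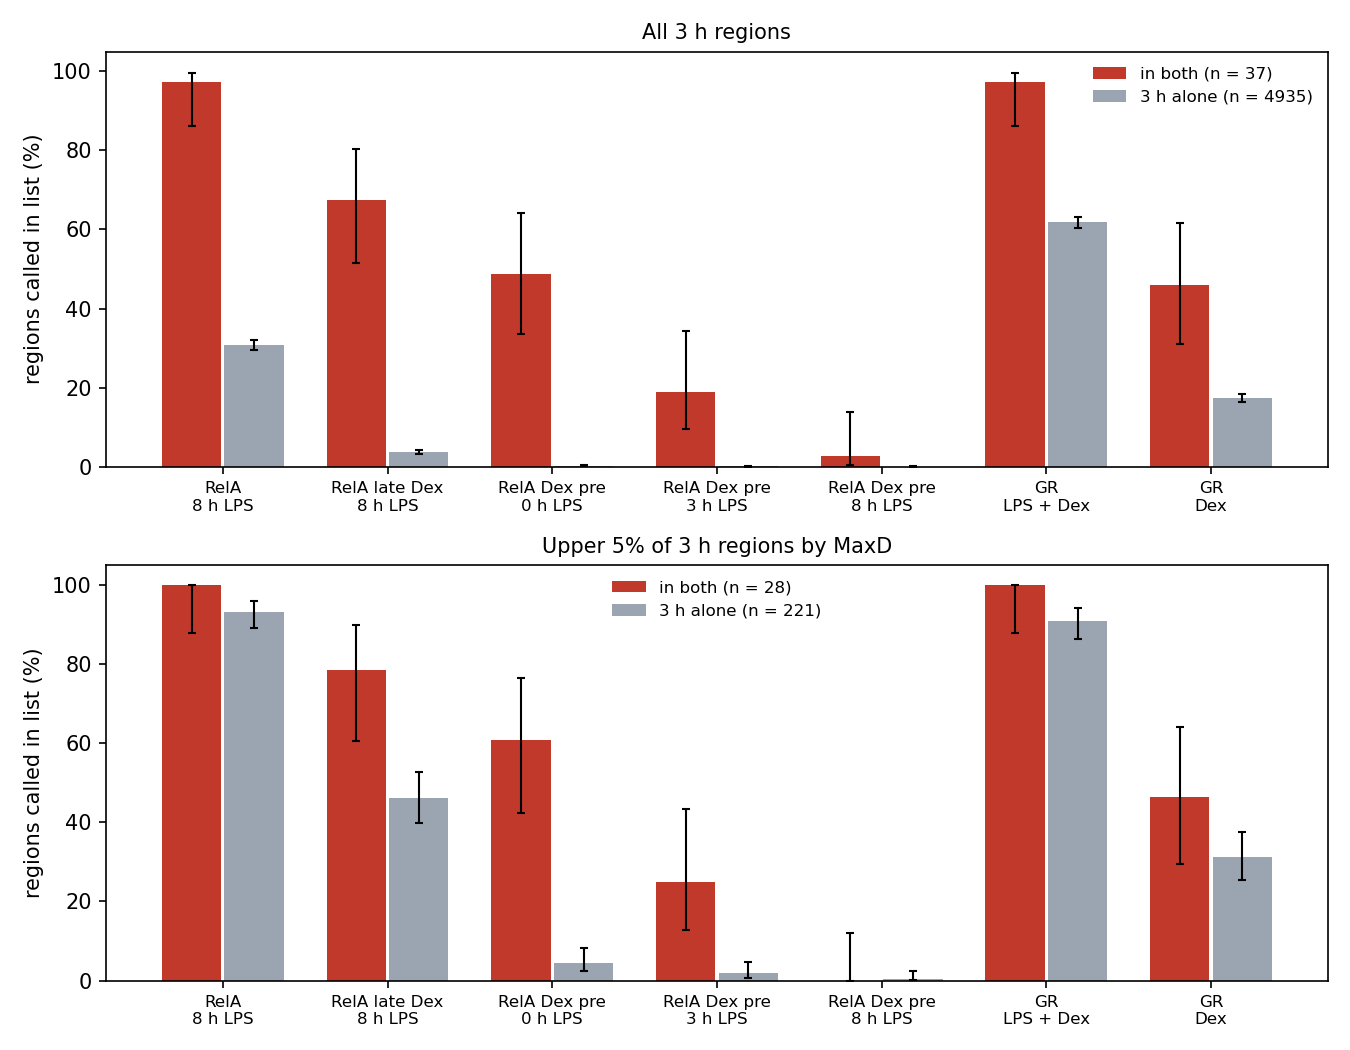
Share of 3 h RelA regions (percent, with Wilson 95% intervals) called in each of the other RelA and GR lists, for regions in both the 3 h and 0 h lists and at 3 h alone, among all regions and within the upper 5% by highest tag density. In the upper 5% the gap between the classes is widest for Dex without LPS (60.7% against 4.52%), followed by late Dex (78.6% against 46.2%). Dex without LPS is a list of cells without LPS, as is the 0 h list that set the class.

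The 10 regions called at 0 h alone were weak. Their highest density at 0 h had a median of 6.50, with 9 of 10 under 10 and 5 of 10 at the shortest width of 251 bp, whereas the 37 shared regions at 0 h had a median of 21.8, with 1 of 37 under 10 and 1 at 251 bp. No 3 h region was near: the closest lay 35.9 kb away. The strongest, on chromosome 15, 82176247 to 82176689, had a density of 22.3, and the nearest 3 h region was 663 kb away and no other list of the series held it. Next were chromosome X, 3218144 to 3218521 (8.10), and chromosome X, 122525856 to 122526238 (7.12). This region at 122525856 was also listed for RelA with Dex before 3 h of LPS (11.5) and for GR (22.2 with LPS and Dex, 29.2 with Dex).

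The remaining 7 had densities at 0 h from 2.94 to 6.85. They lay on chromosome 5 from 104760128, chromosome 8 from 11931562 and from 17629246, chromosome 9 from 48946954, chromosome 12 from 49350794 and from 110474182, and chromosome X from 152909235. The chromosome 9 region (6.14) was listed at 12.5 for RelA with Dex before and no LPS. For GR it was listed at 7.05 with Dex and 6.89 with LPS and Dex. Of the 10 regions, GR with Dex met 5 (50%, interval 23.7 to 76.3%). GR with LPS and Dex met 3 (30%, 10.8 to 60.3%). In each GR list 1 of the 10 had a GR density of at least 10. None of the 10 was called for RelA at 8 h of LPS, with late Dex or with Dex before 8 h of LPS, and 0 of 10 allows a share of up to 30.0%. Of the 10, 3 lay on chromosome X, against 0 of the 37 in both lists and 110 of 4935 (2.23%) at 3 h alone; of the 765 input regions, 235 (30.7%) lay there. The input region nearest to any of these 3 was 140 kb away, and the part of input signal in them was not tested.

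At 3 h alone the density reached 137, against 171 in the shared class. The highest, on chromosome 2 from 167579186, had this density of 137 and lay 63.2 kb past Cebpb, on the way to the shared region at 86.6 kb. It was not called at 0 h but was listed with Dex before and no LPS (30.6), at 8 h of LPS (84.5) and for GR with LPS and Dex (180). Cebpb itself had a single 3 h region, of density 18.1, within its body.

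Of the other 9 among the 10 densest, 1 lay at the start of Ccl3, which encodes the chemokine MIP-1α, with a density of 97.7, and 1 lay 18.5 kb from Socs3, a feedback inhibitor of cytokine receptor signalling, with 133. A region on chromosome 17 from 26671788, with 108, lay 25.8 kb from Dusp1, a phosphatase of MAP kinases that glucocorticoids are known to induce. GR was listed there at 746 with LPS and Dex and at 346 with Dex. The other 6 had densities of 97.0 to 133 and no listed gene near. They lay on chromosome 19 from 22022084 and from 6945023, chromosome 17 from 29531743, chromosome 5 from 65225212, chromosome 12 from 120386044 and chromosome 3 from 142159405. The weakest 3 h region, on chromosome X from 93016356, had a density of 0.815 over 251 bp.

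Genes known to respond to LPS were then looked up by position. Their mm9 positions were set from knowledge of that build to about 1 kb, not from an annotation at hand, and all 48 genes looked up lay on the chromosome that RefSeq gives. Gene lengths differed from those of RefSeq by at most 1.86 kb, except for Ccl4, with a difference of -14.1 kb. Starts are therefore approximate, and the 1 kb window used for them is no larger than the stated precision. Of the 44 genes on the lists (the other 4 were added after values were seen), 42 had a 3 h region within 10 kb of the gene and 2 had a 0 h region, and 28 had a 3 h region within 1 kb of the start, against 1 at 0 h. The lists of 44 genes were themselves chosen with earlier results of these data known. The share over all genes in the same window was not computed, so these counts are not set against a background and describe the listed genes only. Altogether 140 distinct 3 h regions lay at these genes, with a median highest density of 24.4 (range 10.7 to 171) and a median width of 726 bp. Of the 140, 2 were in both lists (Tnfaip3 and Sod2), or 1.43% against 0.744% of all 3 h regions, and 57 (40.7%) were called at 8 h, against 31.3% of all 3 h regions. The 140 were also denser than the regions at 3 h alone, whose median was 18.5, so these shares are not of like density. The 2 genes without a 3 h region within 10 kb were Il10, an anti-inflammatory cytokine, and Nos2, the inducible nitric oxide synthase.

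The set of IκB family genes and Tnfaip3 had 3 h regions at 5 of 5 genes, and 1 of these, Tnfaip3, had one at 0 h. Nfkbia, which encodes IκBα, the inhibitor that is degraded first and made again, had 3 regions at 3 h, of which the one at its start had a density of 72.6 and those in its body 39.3 and 23.9. Nfkbiz, an atypical IκB of the nucleus, had 74.7 at its start and 47.3 inside the gene. Nfkbie (16.9 to 23.1) and Bcl3 (16.4 to 30.1) had weaker regions. Tnfaip3 had, beside its shared start region, one inside the gene at 76.0 that was called at 3 h alone.

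Genes of the NF-κB subunits had 3 h regions at 5 of 5 genes and 0 h regions at none. Nfkb1, which encodes p105 and p50, had 89.2 and 40.9 inside the gene, and Nfkb2, which encodes p100 and p52, had 76.8. Rel had 34.9 at its start and 24.2 inside the gene, Rela itself had 26.7 and 15.0 at its start, and Relb had 17.4. The regions at Nfkb1, Nfkb2 and the start of Rel were called again at 8 h, and those at Rela and Relb were not.

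Cytokine genes had 3 h regions at 6 of 7 and chemokine genes at 7 of 7, and neither set had a 0 h region. At Tnf, the gene of tumour necrosis factor, the region spanned the gene and was the widest of the list, 4994 bp on chromosome 17, 35334857 to 35339851, with a density of 77.2. Il1b had 33.8 at its start and 55.5 outside the gene, and Il6 had 21.1 at its start. Cxcl10, a T cell attractant, had 67.7 over 4411 bp. Ccl5, a chemokine for T cells and monocytes, had 5 regions, of 42.7 to 61.3, of which the widest was 4982 bp. Of the cytokine regions 8 of 9 were called again at 8 h, and of the chemokine regions 8 of 16, where 31.3% of all 3 h regions were. That share is not one of like density. The cytokine and chemokine regions had median highest densities of 29.1 and 45.7, against 18.5 at 3 h alone. Of the regions at 3 h alone in the upper 20% by density, 74.7% were called at 8 h. Their median was 36.8, above that of the cytokine regions and below that of the chemokine regions, so they match neither set in density.

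Other groups had mostly 3 h regions alone. Acod1, the enzyme that makes itaconate, had 8 regions with up to 91.0, and Ptgs2, the inducible cyclooxygenase, had a single weak one at its start (11.3). Sod2 had a weak region at its start (17.8) at 3 h alone beside the shared one within the gene. The transcription factor genes Irf1, Irf8 and Cebpb had 8 regions of 10.7 to 44.6, and 0 of the 8 were called at 8 h. The rough bound for 0 of 8 is a share of up to 37.5%, so these few regions are not set apart from the 31.3% of all 3 h regions. Among genes of receptors and signalling, Socs3 had 10 regions with up to 96.3, Tnfaip2 had 9 and Irak2, a kinase of the Toll-like receptor pathway, had 8.

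Runs of many regions lay along Rsad2 and Vmp1. Rsad2, the gene of the antiviral protein viperin, had 12 regions with densities of 16.3 to 33.0, of which 1 was called at 8 h. Vmp1, whose 3′ end lies next to the gene of miR-21, had 11 regions with 13.5 to 51.2, of which 9 lay within the gene and 6 were denser than 25.3, the upper quartile at 3 h alone. The Mir155 host gene had a region of 1446 bp at chromosome 16, 84712967 to 84714413, with 51.8 at 3 h and 57.1 at 8 h.

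**Figure D4:**
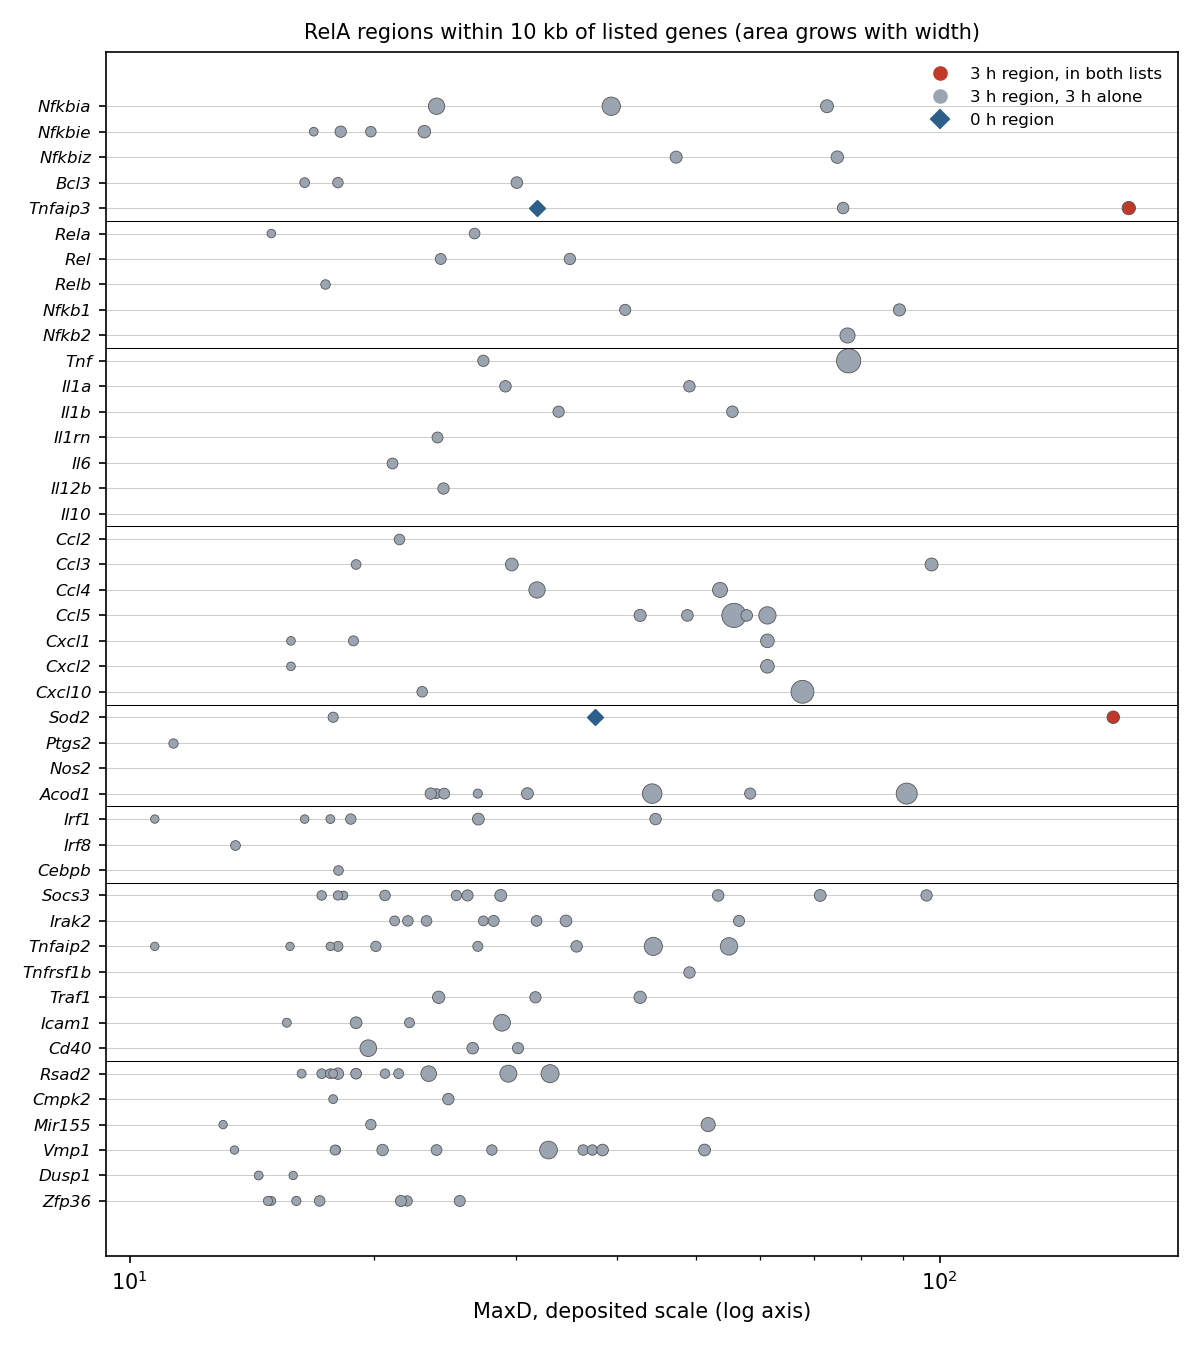
Highest tag density (MaxD, log axis, the authors' scale) of each RelA region within 10 kb of the listed genes, 1 row per gene, with 3 h regions in both lists, 3 h regions alone and 0 h regions marked apart and the area of the 3 h points growing with width. At 3 h 42 of 44 listed genes had a region, and at 0 h Tnfaip3 and Sod2 had one.

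Many of the widest regions lay at the same loci. Of the 22 regions of at least 2000 bp at 3 h, 16 lay at the 44 listed genes, as did 140 of all 4972 regions at 3 h. Those genes were chosen with earlier results of these data known. The count was 18 with Nlrp3 and Actb, which were added after their values were seen. After Tnf and Ccl5 the widest were at Actb, the gene of β-actin (4724 bp, density 34.3), Cxcl10 and Acod1 (3664 bp, 91.0). Nlrp3 was the one region of this width that was also called at 0 h, as a region of 518 bp.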

How the data were processed

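RelA ChIP-seq region lists of 2 libraries (3 h and 0 h of LPS), 1 input list and, for comparison, 7 further RelA and GR lists were used. The submitters' processing notes name CASAVA and mm9. What called the regions, at which threshold, and how densities were scaled are not given in the sources used here. Each deposited list gives, per the file headers, positions, a highest and a mean tag density (signal values), a z-score (score) and a p-value per region; the authors' p-values were not used. Positions are printed as deposited.

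A shared stretch of 1 bp counted as overlap, and regions overlapping input were left out. Python 3.11.15 with pandas 2.3.3, numpy 2.4.6 and scipy 1.17.1 gave counts, medians and Wilson 95% intervals. The steps for overlap, cover, merging and Wilson intervals were checked, overlap and cover on 3 h regions with planted partners. The other steps were not checked in this way. With 1 library per condition no test was made. The regions named are all of those at 0 h alone, the 10 densest at 3 h in each other class and the 5 densest shared ones at 0 h, and regions at gene lists. The members, lists and bounds were chosen with earlier results of these data known. Gene positions on mm9 came from knowledge of that build, to about 1 kb. RefSeq tables on GRCm38.p6 gave chromosomes, gene lengths for a check, and sequences, and no mm9 position. Alternatives changed the overlap, the input filter, the score bound and merging.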

Additional observations from a re-analysis of the deposited data

How the results depend on the processing

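The classes depended on how overlap was defined. Requiring at least 50% of both regions left 19 regions in both lists and 28 at 0 h alone, so 40.4% of 0 h regions were called at 3 h and 0.382% of 3 h regions at 0 h. Of the regions in both lists, 100% were then called at 8 h, 47.4% with late Dex, 26.3% with Dex and no LPS and 5.26% with Dex before 3 h of LPS. At 3 h alone the shares were 27.6%, 2.50%, 0.0808% and 0.0404% for these lists, 0% for Dex before 8 h of LPS, 50.0% for GR with LPS and Dex and 13.7% for GR with Dex. Keeping input-overlapping regions gave 30 at 0 h alone, 63.9% and 1.06%, and in the class of both lists 77.4% called at 8 h, 39.6% with Dex before 3 h of LPS, 26.4% with Dex before 8 h of LPS and 83.0% for GR with LPS and Dex.

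A score of at least 11 in both lists left 5 at 0 h alone and 100% of shared regions called at 8 h. At 3 h alone it gave medians of 22.3 (highest density), 8.97 (mean density) and 628 bp, and shares of 42.1% at 8 h, 5.71% with late Dex, 0.426% with Dex and no LPS, 70.5% for GR with LPS and Dex and 19.6% for GR with Dex. The higher-scoring 50% of the 3 h list left 2449 at 3 h alone and 1.49% of 3 h regions called at 0 h. At 3 h alone it gave medians of 25.3, 9.99 and 679 bp, and shares of 50.3%, 7.39%, 0.490%, 75.3% and 21.2% for the same 5 lists. Centres within 250 bp gave 58.3% for GR with LPS and Dex and 16.1% for GR with Dex at 3 h alone, and a GR density of at least 10 also gave 16.1% for GR with Dex.

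In the upper 20% by density, the regions at 3 h alone had shares of 74.7% at 8 h, 17.3% with late Dex, 1.25% with Dex and no LPS, 0.521% with Dex before 3 h of LPS, 85.0% for GR with LPS and Dex and 24.7% for GR with Dex, and those in both lists had 100% for GR with LPS and Dex. In the upper 5% the shares at 3 h alone were 93.2%, 46.2%, 4.52%, 1.81%, 91.0% and 31.2% for these lists, and 100% of those in both lists were called at 8 h and for GR with LPS and Dex. For Dex before 8 h of LPS the order of the classes turned in both density ranges, on 1 region at 3 h alone. In the upper 20% it was 0 of 35 in both lists against 1 of 959 (0.104%). In the upper 5% it was 0 of 28 against 1 of 221 (0.452%). The only shared region in that list, the weak one on chromosome 12, lay below both bounds. For the other 6 lists the class in both lists had the higher share under each alternative run.

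Leaving out regions only at 50% input cover and merging within 500 bp moved no count by over 1.5 times and no share or median past its interval. Windows of 2 and 50 kb gave 37 and 43 of 44 genes with a 3 h region and 2 with a 0 h region. No paired analysis was possible because each condition had 1 library, and no library could be left out for the same reason. With the depth unknown, absence from the 0 h list means only that no region was called there.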
